A study of Homo sapiens and Mus musculus with 12 samples.

Results

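The RUNX transcription factors and their shared partner were followed in natural killer (NK) cells that had lost EHMT2 or had been treated with an EHMT2 inhibitor. The genes are Runx1, Runx2, Runx3 and Cbfb in mouse and RUNX1, RUNX2, RUNX3 and CBFB in human, taken by symbol, and they make up 4 of 22021 genes in the mouse table and 4 of 18304 in the human table. Splenic NK cells gave 3 libraries from WT animals, which carried Ehmt2 flox/flox alleles, and 3 from KO animals, which carried the same alleles and Ncr1-iCre, so that Cre is made from Ncr1, which encodes the NK receptor NKp46. The KO therefore begins where Ncr1 is switched on, and cells in the sort that never used Ncr1 keep Ehmt2. The genotype field of the KO samples reads Ezh2-KO, whereas their titles name EHMT2, and the titles were followed. The age of the sequenced mice is not given in the labels. NK92MI, a human NK line that makes its own IL-2, received BIX-01294, an inhibitor of EHMT2, or the solvent DMSO, with 3 libraries of each and no dose or time in the labels. The control columns of the human table are named CON, and that they hold the DMSO samples was assumed. Nothing in the labels says that the 3 libraries of a group came from separate mice or cultures, so p-values measure the spread between these libraries, which may be technical.

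RUNX proteins bind DNA through the Runt domain, and CBFβ, which does not bind DNA itself, joins that domain and strengthens its hold on the site. Each RUNX gene is transcribed from a distal and a proximal promoter, which give proteins with different N-termini. RUNX1 is required for blood stem cells, RUNX2 is best known from bone, and RUNX3 is the RUNX factor of cytotoxic lymphocytes, where it silences Cd4 and Zbtb7b in CD8 T cells and acts on Il2rb, Itgae and effector genes. Counts per gene add up the transcripts of both promoters and do not separate them.

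A form of the RUNX site, TGTGGT, or ACCACA on the other strand, is itself present near the starts of some RUNX genes. Only these letters were searched, and other forms of the site were not counted. The promoter table held 5 windows, each of 250 bases before and 50 after a RefSeq start (GRCh38.p14), for 3 of the 4 human genes. Both distal windows, of RUNX2 and RUNX3, held a pair of ACCACA copies with 2 bases between them. They are shown because the same arrangement recurs in the distal windows of both genes, with the ACCACA copies in capitals, 5′ to 3′ on the strand of each gene.
RUNX3, minus strand, chr1:24965120-24965149: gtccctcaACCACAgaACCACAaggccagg
RUNX2, plus strand, chr6:45328338-45328367: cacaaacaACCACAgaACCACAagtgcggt
Counted in bases from the start, the pair began at -131 in RUNX3 and at 16 in RUNX2. The RUNX2 window held 4 copies of these letters in all, on either strand. The proximal windows of RUNX3 and RUNX2 and the single RUNX1 window held none. The start of that RUNX1 window, at 34888699, lies inside the gene, which begins at 36004667 on the minus strand. No other window of RUNX1 was available, so its distal promoter was not examined. Of 35116 promoter windows of the same length, 13.1% held these letters on either strand, with overlapping copies counted. A pair in this arrangement was held by 4 windows (0.0114%), which include those of OR52N2 and LOC105369321. Pairs with another spacing or in opposite orientations were not counted. The arrangement is shown because the RUNX windows hold it, so its share is a description. A match of letters does not show that a RUNX protein is bound there.

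The depth was 25891680 to 37438868 counts per library in mouse and 16579469 to 17165446 in human. Each member had between 2850 and 22150 counts per mouse library and between 1214 and 7361 per human library. Values are given as CPM, counts scaled to library size after TMM normalization. Tests are those of edgeR's quasi-likelihood model over all genes of a species, and a gene was called where its p, adjusted by Benjamini-Hochberg, was under 0.05. The targeted gene Ehmt2 was lower in KO, with 150 ± 18.1 against 282 ± 5.94 CPM in WT (SD, n = 3), and each KO library was below each WT library. All 12 NK markers were counted in both species. The mouse libraries also held markers of other cells: those of macrophages and monocytes took 0.257% to 0.664% of the counts in WT and 0.137% to 0.254% in KO, while NK markers took 0.509% to 0.847% in WT and 0.977% to 1.10% in KO. In NK92MI cells the macrophage and monocyte markers stayed at or below 0.00106% of the counts.

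RUNX3 was the leading RUNX gene in both cell types. Divided by the length of the annotated exons, mouse Runx3 stood at 75.6 ± 15.7 CPM per kilobase (SD, n = 3) in WT and 108 ± 14.2 in KO. Cbfb followed with 31.2 ± 1.55 in WT and 34.4 ± 1.52 CPM per kilobase in KO. Runx2 had 13.1 ± 2.65 and Runx1 9.30 ± 0.512 CPM per kilobase in WT, and their KO libraries ran from 10.6 to 11.9 for Runx2 and from 9.45 to 12.0 for Runx1. The libraries of Runx3, Cbfb and the lower pair were separate in both genotypes, while Runx2 and Runx1 overlapped in KO. Runx3 made up 77.2% of the summed CPM per kilobase of the 3 RUNX genes in WT and 82.9% in KO.

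In NK92MI cells the order was different, with CBFB above every RUNX gene. CBFB had 88.6 ± 2.67 CPM per kilobase (SD, n = 3) under DMSO and 90.1 ± 3.56 under BIX-01294. RUNX3 followed with 50.3 ± 1.53 and 78.4 ± 1.41. RUNX1 had 13.3 ± 0.605 under DMSO and 10.4 ± 0.855 CPM per kilobase under BIX-01294, and RUNX2 had 9.48 ± 0.712 and 9.41 ± 0.526. RUNX1 and RUNX2 did not overlap under DMSO and did under BIX-01294. The part of RUNX3 in the summed RUNX level was 68.9% under DMSO and 79.8% under BIX-01294. With the length of the longest principal transcript in place of the joined exons, a choice added after seeing the data, this part was 71.6% in WT, 77.9% in KO, 57.1% under DMSO and 70.8% under BIX-01294. That length also reversed the order of Runx1 and Runx2 in KO, to 22.6 ± 2.79 and 16.9 ± 0.932 CPM per kilobase, made the pair overlap in WT, and separated RUNX1 from RUNX2 under BIX-01294, at 22.4 ± 1.83 and 14.3 ± 0.800.

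**Figure D1:**
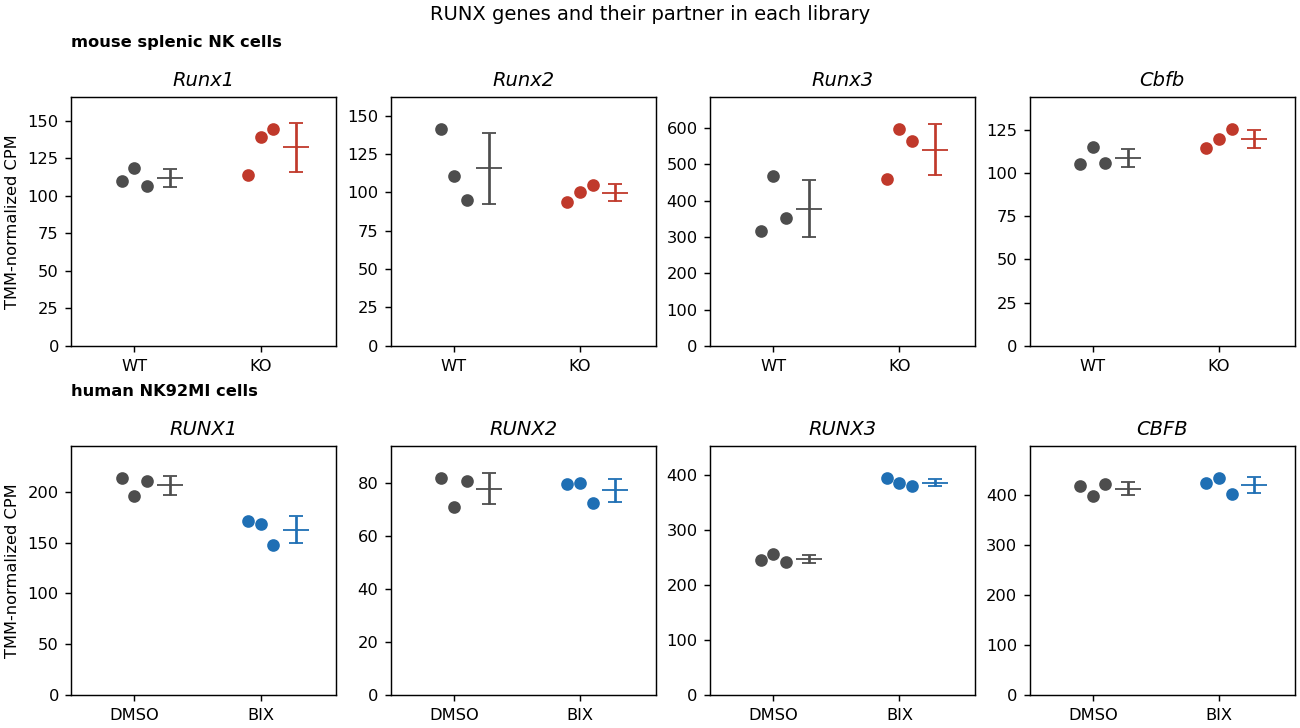
TMM-normalized CPM of each gene (y axis, from 0) in every library, for mouse WT and KO NK cells (top) and NK92MI cells under DMSO or BIX-01294 (bottom), with the mean and SD beside the points. RUNX3 is higher in all 3 BIX libraries and RUNX1 lower, while each mouse gene overlaps between WT and KO.

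BIX-01294 was accompanied by opposite changes of RUNX3 and RUNX1. RUNX3 (chromosome 1 from 24899511 to 24965121, minus strand, GRCh38) was counted at 393, 384 and 380 CPM in the BIX libraries and at 246, 256 and 241 CPM in the DMSO libraries. The groups did not overlap, and all 3 BIX libraries were far above the highest DMSO library. RUNX3 rose 1.56-fold, or 0.64 on the log2 scale (standard error 0.06, 95% interval 0.51 to 0.77, edgeR adjusted p = 2.82e-06). It is the member that also passed the thresholds of the study, an adjusted p under 0.01 with an absolute log2 fold change over 0.5.

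RUNX1 (chromosome 21 from 34787801 to 36004667, minus strand) had 172, 169 and 147 CPM with BIX-01294 and 213, 196 and 210 CPM with DMSO. Every BIX library was below every DMSO library, and BIX replicate 3 was the lowest. RUNX1 fell by 0.34 on the log2 scale (standard error 0.07, 95% interval -0.50 to -0.19, edgeR adjusted p = 0.00198), which is short of the fold change the study required. Both calls held with each library left out in turn, when the log2 fold change lay between 0.62 and 0.66 for RUNX3 and between -0.38 and -0.27 for RUNX1.

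RUNX2 (chromosome 6 from 45328157 to 45664349, plus strand) and CBFB (chromosome 16 from 67028984 to 67101058, plus strand) were at nearly the same level in both groups. RUNX2 had 79.5, 79.8 and 72.1 CPM with BIX-01294 and 81.6, 71.0 and 80.5 CPM with DMSO, and its log2 fold change was -0.01 (95% interval -0.17 to 0.15, edgeR adjusted p = 0.929). CBFB had 424, 433 and 401 CPM with BIX-01294 and 417, 398 and 422 CPM with DMSO, with a log2 fold change of 0.02 (95% interval -0.11 to 0.15, edgeR adjusted p = 0.788). Both genes overlapped between the groups, and the intervals ran from 0.887-fold to 1.11-fold for RUNX2 and from 0.930-fold to 1.11-fold for CBFB. The sign of either value turned when single libraries were left out.

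Called members were thus 2 of 4 in NK92MI cells, where 36.9% of the 12727 genes tested were called, 18.4% of them upward and 18.4% downward. The study's thresholds took 1 of the 4 members and 11.7% of all genes. The groups did not overlap for 2 of 4 members, as for 47.9% of all genes. The share of NK markers in the counts also moved, from 0.592% to 0.629% under DMSO to 0.764% to 0.948% under BIX-01294, and its part in these results was not tested. Of the 12 markers in that sum 7 were called upward and 3, KLRC1, NCR1 and IL2RB, downward. EHMT2 itself fell by 0.58 on the log2 scale (edgeR adjusted p = 0.000101).

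Antisense transcripts contributed few counts. RUNX3-AS1, an RNA from the opposite strand within the RUNX3 gene, had 9 to 20 counts per library beside 4075 to 6540 for RUNX3, and RUNX2-AS1 had 0 to 3. The exons of neither share a base with those of their partner in GENCODE 44. SUPT3H, which lies opposite RUNX2 and whose exons do not overlap it either, had 900 counts over the 6 libraries. RUNX1-AS1 had at most 16 counts in a library and RUNX1-AS2 at most 6. In mouse, Supt3 lies opposite Runx2 with no exon shared, and it had 2804 counts over the 6 libraries.

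In mouse NK cells none of the 4 genes passed the test between KO and WT. Runx3 (chromosome 4 from 135120652 to 135177990, plus strand, GRCm38) had 461, 597 and 564 CPM in KO and 317, 467 and 352 CPM in WT. KO replicate 1 was just below WT replicate 2, and otherwise the KO libraries were the higher ones. The means were 541 ± 70.9 and 378 ± 78.6 CPM (SD, n = 3), and the log2 fold change was 0.52 (standard error 0.17, 95% interval 0.13 to 0.90, edgeR adjusted p = 0.0729). The call was not the same with another tool or with 1 library left out. DESeq2 gave an adjusted p of 0.0163 at a log2 fold change of 0.50, and without WT replicate 2 edgeR gave 0.70 with an adjusted p of 0.0108.

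WT replicate 2 was the smallest mouse library and had the highest Runx3 of the WT libraries. It also had the highest share of NK markers in WT, 0.847% against 0.509% and 0.528%, and the lowest share of macrophage and monocyte markers, 0.257% against 0.664% and 0.497%. The 3 libraries with the highest share of NK markers were those of KO, and WT replicates 1 and 3, with the lowest shares, had the lowest Runx3. The orders were not the same throughout, since KO replicate 1 had a higher NK marker share than WT replicate 2 and slightly lower Runx3, and KO replicate 3 a higher share than KO replicate 2 and lower Runx3. Among the 12 NK markers 6 rose in KO and none fell, and among the 10 macrophage and monocyte markers 6 fell and none rose, where 4.44% of all genes tested rose and 7.43% fell. In bulk samples such as these, fewer cells of a type and less RNA per cell cannot be told apart. B cell markers took 0.0569% to 0.164% of the counts in WT and 0.00986% to 0.0541% in KO. The part of these cells in the value of Runx3 was not tested.

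**Figure D2:**
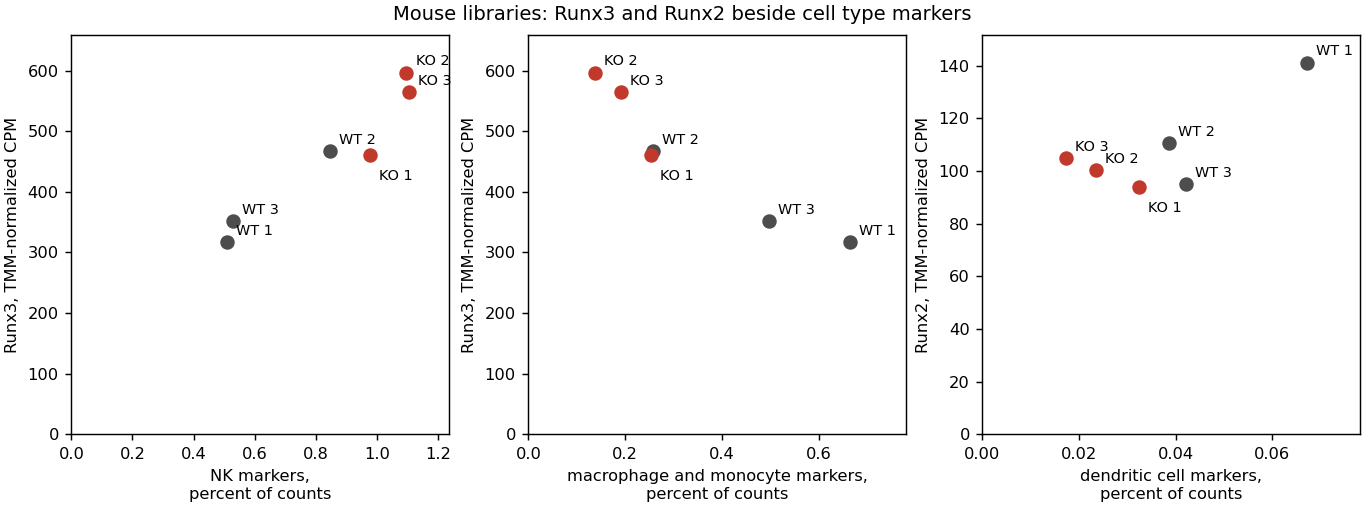
Runx3 (left and middle) and Runx2 (right) in TMM-normalized CPM on the y axis against the percent of counts taken by NK, macrophage and monocyte, or dendritic cell markers on the x axis, for the 3 WT and 3 KO mouse libraries. WT replicate 2 lies beside KO replicate 1 in the middle panel, and WT replicate 1 stands apart in the right panel.

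Runx1 (chromosome 16 from 92601466 to 92826149, minus strand) had 114, 139 and 144 CPM in KO and 110, 119 and 107 CPM in WT. KO replicates 2 and 3 were above all WT libraries, and KO replicate 1 was among them. The means were 132 ± 16.4 and 112 ± 6.15 CPM (SD, n = 3), and the log2 fold change was 0.24 (standard error 0.11, 95% interval -0.00367 to 0.49, edgeR adjusted p = 0.144). Without KO replicate 1 it was 0.34 with an edgeR adjusted p of 0.0458.

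Cbfb (chromosome 8 from 105170674 to 105217989, plus strand), the partner of all 3 factors, had 115, 120 and 125 CPM in KO and 105, 115 and 106 CPM in WT. KO replicate 1 and WT replicate 2 were nearly equal and made the groups overlap. Its log2 fold change was 0.14 (standard error 0.08, 95% interval -0.04 to 0.32, edgeR adjusted p = 0.224).

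Runx2 (chromosome 17 from 44495987 to 44814797, minus strand) was the member with the lower mean in KO. It had 93.9, 100 and 105 CPM in KO and 141, 111 and 95.1 CPM in WT, and WT replicate 1 stood well above the other five libraries. The log2 fold change was -0.21 (standard error 0.14, 95% interval -0.54 to 0.12, edgeR adjusted p = 0.310), and without WT replicate 1 it was -0.04. That library also held the highest shares of dendritic cell markers, 0.0671% against 0.0386% and 0.0421% in the other WT libraries, and of plasma cell markers, 0.0670% against 0.0149% and 0.0313%. Their part in the Runx2 value was not tested.

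The calls in mouse, 0 of 4 members, stand beside 11.9% of the 13189 genes tested, 4.44% called upward and 7.43% downward. By the study's thresholds edgeR called no member and 0% of all genes, while 2080 genes were higher and 2639 lower at an unadjusted p under 0.05. At the same thresholds DESeq2 called 1495 genes and limma-voom 3. The groups overlapped for all 4 members, whereas 38.5% of all genes had groups that did not overlap. Scaling the libraries to the summed NK markers shifted the median of all genes to -0.81. The log2 fold changes then became -0.27 for Runx3, -0.58 for Runx1, -0.67 for Cbfb and -1.05 for Runx2. Relative to that median Runx3 was at 0.54, Runx1 at 0.23, Cbfb at 0.14 and Runx2 at -0.25. A change of library scaling moves all genes by a similar amount, so it keeps their order by construction. The sign of 3 of the members was not kept.

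**Figure D3:**
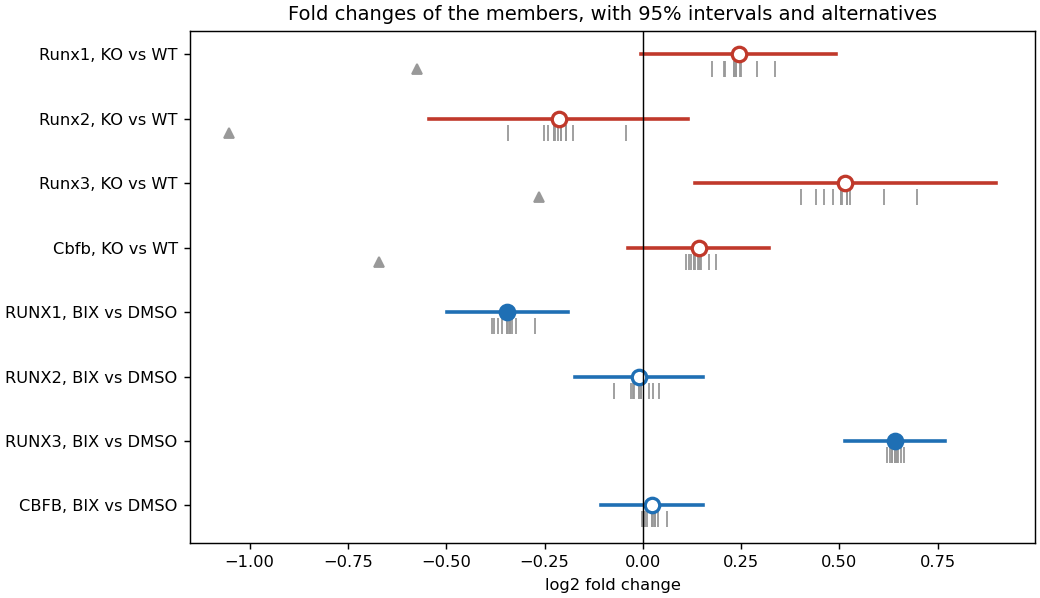
Log2 fold change (x axis) of each gene in KO against WT (red) and BIX against DMSO (blue), with 95% intervals and filled circles for genes that passed. Grey ticks are the alternatives, and grey triangles the scaling to NK markers, which takes all 4 mouse genes below 0.

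Ratios of members within a library do not depend on how libraries are scaled. In NK92MI cells the log2 ratio of RUNX3 to RUNX1 counts was 1.25 ± 0.10 (SD, n = 3) with BIX-01294 and 0.26 ± 0.11 with DMSO, a difference of 0.99. The ratio of RUNX3 to CBFB went from -0.74 ± 0.09 to -0.12 ± 0.05, a difference of 0.62. For both ratios each BIX library was above each DMSO library, with p = 0.1 in a two-sided exact permutation test, the smallest p that 3 against 3 libraries allow. Adjusted over the 6 pairs of members in the species, this p is 0.12.

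In mouse the ratio of Runx3 to Runx1 was 2.03 ± 0.07 in KO and 1.74 ± 0.23 in WT on the log2 scale (SD, n = 3; exact permutation p = 0.2). That of Runx3 to Cbfb was 2.17 ± 0.16 in KO and 1.78 ± 0.22 in WT (exact permutation p = 0.2). Both overlapped between the genotypes. The other pairs were added after seeing the data, and 3 of the 6 mouse pairs did not overlap, namely the 3 with Runx2. Runx3 to Runx2 was 2.43 ± 0.14 in KO and 1.71 ± 0.48 in WT (exact permutation p = 0.1, 0.2 adjusted over the 6 pairs), and without WT replicate 1 the difference of 0.72 became 0.45. In human 5 of 6 pairs did not overlap, with CBFB to RUNX2 the exception at 2.44 ± 0.03 with BIX-01294 and 2.41 ± 0.07 with DMSO. The pairs share members, and the share over pairs of other genes was not computed. Of single genes, 38.5% did not overlap in mouse and 47.9% in human.

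**Figure D4:**
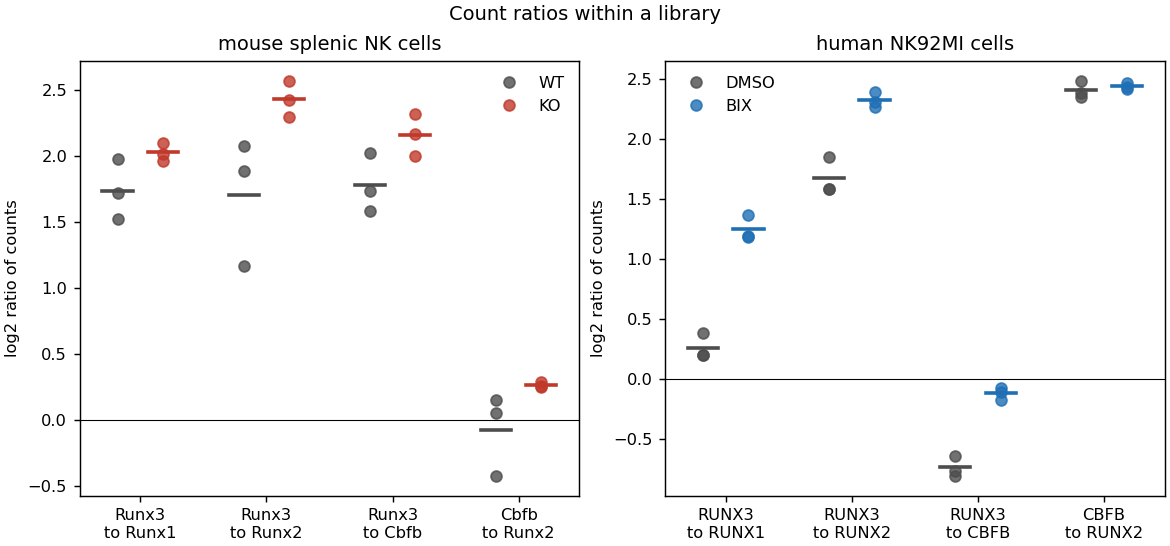
Log2 ratio of the counts of 2 members in the same library (y axis) for 4 pairs, with 1 point per library and a bar at the mean of each group. Ratios with RUNX3 on top are higher in all BIX libraries, while in mouse Runx3 to Runx1 and Runx3 to Cbfb overlap between WT and KO.

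Partners of the RUNX proteins were examined next. In mouse, a list of 30 cofactors and modifying enzymes, among them TLE corepressors, histone deacetylases and acetyltransferases, had 29 genes tested, of which 2 fell, none rose and 27 did not pass, beside 11.9% called over all genes. The median log2 fold change was 0.08, beside 0.01 over all genes. Cbfa2t3, a corepressor of the ETO family, fell from 224 ± 22.5 to 138 ± 10.9 CPM (log2 fold change -0.69, edgeR adjusted p = 0.0239). Cdk6, a cyclin-dependent kinase that binds RUNX1, fell from 53.3 ± 4.35 to 37.4 ± 3.24 CPM (log2 fold change -0.51, edgeR adjusted p = 0.0343). No gene of the list was called without WT replicate 1, WT replicate 3, KO replicate 2 or KO replicate 3, while 3 were called upward and 3 downward without WT replicate 2. Over all genes the calls without those first libraries were 99, 14, 0 and 0, and 3530 without WT replicate 2. DESeq2 called 2 of the list upward and 3 downward, beside 1098 and 1989 of all genes. Scaling to NK markers called 0 upward and 23 downward, beside 35 and 8798 of all 13189 genes.

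In NK92MI cells 27 of these 30 genes were tested, 5 rose, 4 fell and 18 did not pass, beside 36.9% called over all genes, with a median of 0.06 beside -0.01 over all genes. SMAD3, which carries TGF-beta signals and forms complexes with RUNX proteins, rose by a log2 fold change of 0.57 (edgeR adjusted p = 5.16e-05), from 54.6 ± 3.57 to 81.0 ± 3.22 CPM. The Groucho corepressor TLE4 rose by 0.44, CDK6 by 0.30, the Polycomb gene BMI1 by 0.24 and CBFA2T2 by 0.23. Among the genes that fell were the deacetylases HDAC3 and HDAC1, at -0.29 and -0.19, and the arginine methyltransferase PRMT1 at -0.24. PRMT1 passed narrowly (edgeR adjusted p = 0.0470), and its groups overlapped. With 1 library left out, between 2 and 9 of these genes were called upward and between 1 and 4 downward. CDK6 fell in KO mouse cells and rose in BIX-treated cells, and the difference between these responses was not tested.

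Genes reported elsewhere as targets of RUNX proteins moved in both directions. Of 24 such genes 23 were tested in mouse, of which 5 rose, 4 fell and 14 did not pass, where 4.44% of all genes rose and 7.43% fell, with a median log2 fold change of 0.29 beside 0.01 over all genes. Ifng, the interferon of NK cells, rose from 19.2 ± 5.41 to 40.2 ± 2.45 CPM (log2 fold change 1.07, edgeR adjusted p = 0.0279). Tbx21, which encodes T-bet, rose by 0.90, the repressor gene Gfi1 by 0.86, the cytokine gene Csf2 by 1.33 and Spp1, which encodes osteopontin, by 1.54. Those that fell were Myb at -0.93, Mpo at -2.66, Spi1 at -0.95 and Csf1r at -1.21. Myb is known from progenitors, and Mpo, Spi1 and Csf1r are known from myeloid cells. The macrophage and monocyte markers, a list that holds Csf1r itself, fell as well. The part of such cells in these values was not tested.

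The targets best known from RUNX3 in T cells were not among the calls in mouse. Cd4 and Zbtb7b, which RUNX3 silences there, had log2 fold changes of -1.21 (edgeR adjusted p = 0.0560) and 0.07 (0.582). Cd8a was at -1.40 (0.252) and Itgae, the integrin of tissue-resident lymphocytes, at -0.36 (0.432). Il2rb, the receptor chain shared by IL-2 and IL-15, was at 0.74 (0.104), and the integrin gene Itgal at 0.61 (0.0627). T cell markers, a list that holds Cd4 and Cd8a, took 0.0293% to 0.0381% of the counts in WT and 0.0265% to 0.0400% in KO. The sum joins opposite changes, with 4 of the 10 genes higher in KO and 6 lower. Cd28 and Cd3g passed upward, at 0.66 and 0.59, and none passed downward. The part of T cells in these values was not tested.

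These counts changed in mouse when single libraries were left out, as did the calls over all genes. With 1 library left out, between 0 and 10 of the targets were called upward and between 0 and 6 downward, and none of the targets that rose was called without WT replicate 1, WT replicate 3, KO replicate 2 or KO replicate 3. Over all genes the calls without those libraries were 99, 14, 0 and 0, and 3530 without WT replicate 2. DESeq2 called 10 of the targets upward and 6 downward, beside 1098 and 1989 of all genes. Under scaling to NK markers, no target was called upward and 10 were called downward, beside 35 and 8798 of all 13189 genes. Prf1 and Il2rb are on both the target list and the list of NK markers that sets this scaling.

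In NK92MI cells 13 of the 24 targets were tested, of which 8 rose, 4 fell and 1, ZBTB7B, did not pass (log2 fold change -0.13, edgeR adjusted p = 0.237). Over all genes 36.9% were called, 18.4% in each direction. IFNG rose from 31.5 ± 3.33 to 206 ± 48.7 CPM (SD, n = 3), a log2 fold change of 2.71 (edgeR adjusted p = 1.90e-08). The cytotoxic genes GZMB and PRF1 rose by 0.89 and 0.57, MYB by 1.04, KIT by 0.70 and GFI1 by 0.28. ITGAE rose by 0.39, from 19.6 ± 1.25 to 25.6 ± 2.19 CPM, and CSF1R by 0.74, at no more than 4.25 ± 0.512 CPM. TBX21 fell by 0.46, ITGAL by 0.34, EOMES by 0.17 and IL2RB by 0.16. The latter pair was called with neither DESeq2 nor its size factors in edgeR, which left 2 genes lower. With 1 library left out, 6 to 9 of the targets were called upward and 2 to 3 downward. CD4, at 0.120 CPM with BIX-01294 and 0.0392 CPM with DMSO, was too low to be tested, and CD8A is not among the genes of the human counts. The median of the 13 was 0.39, beside -0.01 over all genes. GZMB, PRF1 and IL2RB are also on the list of NK markers.

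**Figure D5:**
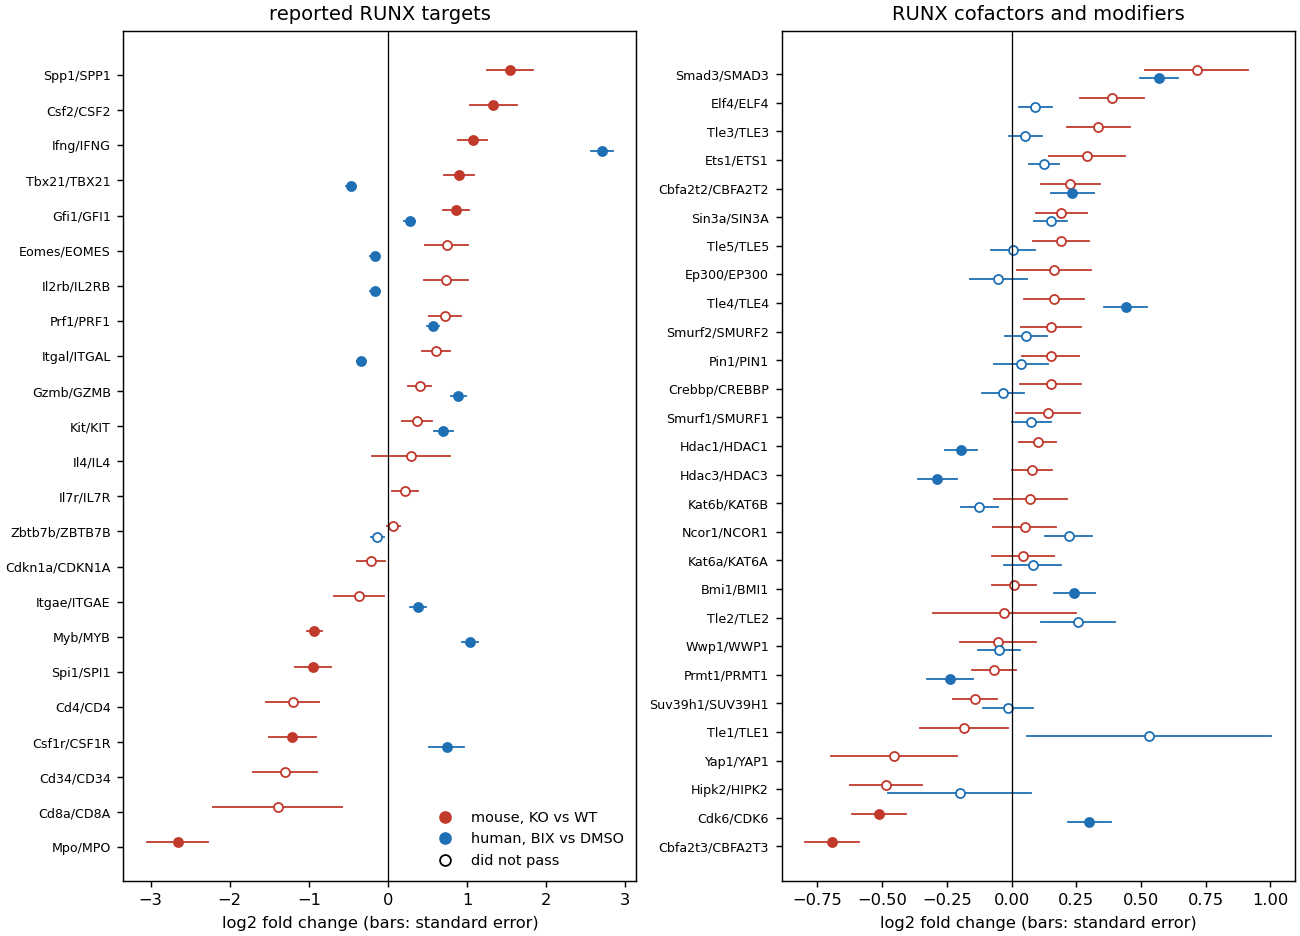
Log2 fold change with its standard error (x axis) of reported RUNX targets (left) and RUNX cofactors and modifiers (right), in KO against WT mouse NK cells (red) and BIX against DMSO NK92MI cells (blue). Filled circles passed the test, and 1 gene of the right panel is not drawn. Ifng/IFNG and Gfi1/GFI1 rose in both, while Tbx21 rose in mouse and TBX21 fell in NK92MI cells. Myb and Csf1r fell in mouse, and MYB and CSF1R rose in NK92MI cells.

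The genes whose levels were most like those of a member over the 6 libraries of a species were ranked by Pearson's r of log2 CPM, as a description. For mouse Runx3 they were Bicd1 (r = 0.999), the perforin gene Prf1 (0.998) and Psip1 (0.998), and 695 genes had an r over 0.95. Prf1 is on the NK marker list. For Runx1 they were Trim56, Rptor and Mdc1, and for Cbfb Mfhas1, Clcn6 and Paqr7, with 183 and 410 genes over 0.95. Runx2 had the fewest such genes in mouse, 12, led by Qdpr, St7 and Gm29609.

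In NK92MI cells RUNX3 was most like BRD2, a bromodomain gene, RCAN2 and LINC01215, each with an r of 0.998 or more, and 819 genes had an r over 0.95. RUNX1 was most like CEP83, TRMT5 and TGS1, with 257 genes over 0.95. For RUNX2 the closest genes were POLK, KIAA1586 and ARL10, and for CBFB they were ELK4, DNTT and CCDC144CP, with 25 and 59 genes over 0.95. All these values share the same 6 libraries of 2 groups, so a gene that differs between the groups takes part of its r from that difference.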

How the data were processed

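RNA-seq was performed on polyA RNA of 3 WT and 3 KO mouse samples and of NK92MI cells, 3 BIX and 3 DMSO. The authors trimmed reads with fastp 0.23.4, used STAR 2.7.11b for alignment, to GRCm38/mm10 in mouse and GRCh38/hg38 in human, and HTSeq 2.0.3 for counting. The values they deposited are raw counts per gene symbol. The annotation release and strand setting are not given in the sources used here. The control columns of the human table, named CON, were taken to be the DMSO samples and, with no link to their numbers, used as a group.

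Each species was fitted with edgeR 4.0.16 (R 4.3.3), after TMM normalization and filterByExpr, at an adjusted p under 0.05. The study's tool, DESeq2 1.42.0, and limma 3.58.1 (voom) were alternatives, with other scalings, other filters, a replicate block and each library left out. Intervals are from the edgeR fit. Lengths and positions are from GENCODE M21 and 44, not shown to be the releases of the authors, and promoters from RefSeq (GRCh38.p14). Protein sequences were not used here.

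The members and lists were chosen with earlier results of these data known. Named were all members, list genes that passed (at most 8 per direction and list), 6 fixed targets, overlapping genes, Ehmt2 and the 3 genes most like each member, by log2 CPM with a prior count of 2. For 1 cofactor, which is in the counts of its list, no values are reported here. No 2 libraries of a group agreed within sampling noise (chi-square per degree of freedom of their counts 2.81 or more). For a check, counts were simulated with 200 changed genes per species. With the mouse libraries and 13189 genes it recovered 15% of those changed 1.5-fold and 73% of those changed 2-fold. With the human libraries and 12727 genes it recovered 62.6% and 87.2%. More genes were called in the data, 1565 in mouse and 4692 in human, so these shares need not hold there.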

Additional observations from a re-analysis of the deposited data

How the results depend on the processing

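RUNX3 and RUNX1 in NK92MI cells kept their direction and their call at an adjusted p under 0.05 under the other fits and with each library left out. By the study's thresholds RUNX1 was not called. The log2 fold changes of the mouse genes kept their sign except under scaling to NK markers, which gave -0.58 for Runx1, -0.27 for Runx3, -0.67 for Cbfb and -1.05 for Runx2, with Runx1, Cbfb and Runx2 then past the threshold downward, and 8833 genes passing. The number of mouse genes passing, 1565, was 3087 with DESeq2, which put Runx3 past the threshold at 0.50, and 0 by the study's thresholds, which gave 1485 in human. With 1 library left out it lay between 0 (KO replicate 2 or 3) and 3530 (WT replicate 2), with 99 without WT replicate 1 and 14 without WT replicate 3, and Runx3 lay between 0.40 and 0.70 and Runx1 between 0.18 and 0.34. The same left RUNX2 between -0.0728 and 0.0405 and CBFB between -0.00154 and 0.0607, with RUNX2 at 0.0405 without BIX replicate 3 and at 0.0245 and 0.0144 without DMSO column 1 or 3. The causes were not tested.

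A replicate block in mouse raised the number of genes passing to 3222 and put Runx3 past the threshold at 0.53 (edgeR adjusted p = 0.0113), with no other member's call changed. The numbers are not known to pair mice: deviations of same-numbered libraries correlated at 0.28, 0.35 and -0.19, and 3 of 6 libraries correlated best with their own number. No paired analysis was possible in human because the DMSO columns carry no number of a sample.

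The members had at least 1214 counts in each library. With 3 libraries a group, mouse changes near 1.5-fold were mostly missed in simulated data.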
